A study of Mus musculus with 16 samples.

Results

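The 10 genes described here encode the main potassium channel subunits that repolarize the heart. They are the transient outward current genes Kcnd2, Kcnd3 and Kcnip2, the delayed rectifier genes Kcna5, Kcnv2, Kcnh2 and Kcnq1, the inward rectifier gene Kcnj2, and the ATP-sensitive channel genes Kcnj11 and Abcc9. They were chosen by name, as the genes whose probe sets carry 1 of these symbols and no other, and are 10 of the 22180 genes measured. Each of the 10 is read by 1 probe set, so isoforms were not told apart.

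The hearts were those of 16 mice on the C57Bl/6J background, with 4 mice to a group. The genotypes were wild type (WT) and Clock delta 19/delta 19, called transgenic in the labels and Clock mice below. Each genotype was kept for 24 weeks on standard chow or on high-fat food (HFD). All mice were 32 weeks old, and the myocardium was taken 7 h after lights on, so every value is from 1 time of day. The delta 19 allele is carried in all cells, not only in the heart. The comparisons ask how the mutation and the diet each relate to the channel transcripts, and whether the mutation alters the diet difference.

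An action potential in a heart muscle cell ends when potassium leaves through channels that open in turn. In the mouse ventricle the fast transient outward current and the ultrarapid delayed rectifiers do most of this early on, the inward rectifier holds the resting potential, and the ATP-sensitive channel opens when the energy state falls. Several of these transcripts are known to cycle over the day, and Kcnip2 is a known target of the clock-controlled factor KLF15.

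The sequences just upstream of Kcnd2 and Kcnj2 are shown because Kcnd2 had the largest genotype difference of the 10 and Kcnj2 held the only clock motif found. RefSeq's promoter table (GRCm38.p6) has windows from 250 bases before to 50 after the start for 7 of the 10 genes, and those of Kcnip2, Kcnh2 and Abcc9 start inside the gene. The motifs searched on both strands were the E-box CACGTG, to which CLOCK and BMAL1 bind, the E-box variant CACGTT, and the D-box letters TTATGTAA and TTACGTAA, to which DBP and its relatives bind. No site can count for more than 1 of these motifs. The bases below are the 250 before the start, 5′ to 3′, on the plus strand, chr6:21215096-21215345 for Kcnd2 and chr11:111065914-111066163 for Kcnj2, and capitals mark the E-box.
Kcnd2: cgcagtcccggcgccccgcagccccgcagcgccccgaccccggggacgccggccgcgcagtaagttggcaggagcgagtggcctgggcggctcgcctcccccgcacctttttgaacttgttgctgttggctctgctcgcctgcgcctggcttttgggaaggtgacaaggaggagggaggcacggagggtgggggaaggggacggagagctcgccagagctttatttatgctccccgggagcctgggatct
Kcnj2: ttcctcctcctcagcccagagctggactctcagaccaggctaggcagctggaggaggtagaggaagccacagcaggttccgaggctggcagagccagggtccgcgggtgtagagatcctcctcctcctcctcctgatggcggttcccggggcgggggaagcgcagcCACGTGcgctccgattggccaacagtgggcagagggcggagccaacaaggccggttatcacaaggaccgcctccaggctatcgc
The E-box of Kcnj2 lies 84 bases before the start. CACGTG was in 1 of the 7 windows, against 7.15% of all 32851 promoters in the table. CACGTT was in 0 of the 7 against 4.68% of all, TTATGTAA in 0 against 0.938% and TTACGTAA in 0 against 0.119%. A match is a description of the letters, not a binding site.

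The deposited log values were taken as log2. Every probe set in them is centred on its median across arrays. So 1 gene can be compared between hearts, but the levels of 2 genes cannot be compared. For the same reason, marker genes show differences between hearts and not whether a cell type is there. Array medians lay between -0.0015 and 0.0028 and array SDs between 0.11 and 0.16. Two-sided limma tests with Benjamini-Hochberg adjustment over all 22180 genes were used, and "passed" below means an adjusted p under 0.05; ± gives the standard error of the fit unless SD is named. The clock output genes Dbp and Nr1d1 fell in Clock hearts on both diets (Dbp -2.05 on chow and -2.73 on HFD on the log2 scale, Nr1d1 -1.04 on each), while Arntl, which encodes BMAL1, was higher on HFD (1.92 ± 0.26, adjusted p = 0.000746) and did not pass on chow (0.72 ± 0.26, adjusted p = 0.309). Between the diets, Arntl averaged -0.45 in WT chow and -1.88 in WT HFD hearts. These groups did not overlap, against 5.30% of all genes (lowest WT chow -1.34, highest WT HFD -1.54). In that comparison 1 of the 5 core clock genes listed passed, lower on HFD, where 0.352% of all genes passed. Its part in the diet differences below was not tested. Among the WT chow hearts, replicate 4 stood apart in Dbp (0.37, the others 1.71 to 2.29), and replicate 2 in the interferon-induced gene Igtp (3.57, all other hearts -0.25 to 0.41). Member calls that change without both of these libraries are given with both values, as are the differences on chow that move most.

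**Figure D1:**
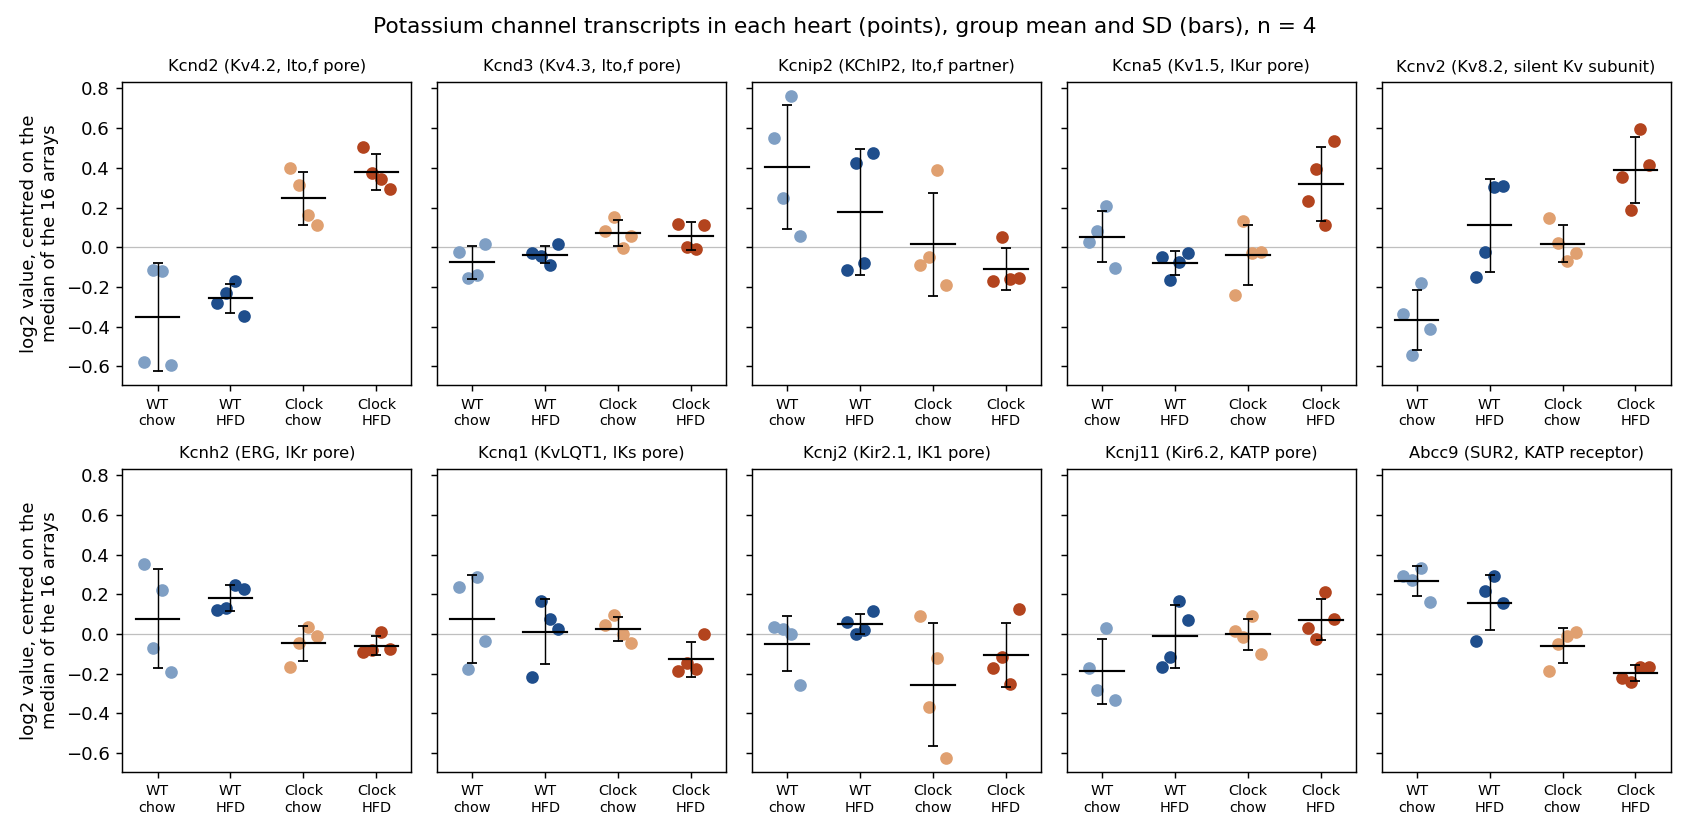
Log2 value of each of the 10 channel genes in each heart (points), centred on the median of the 16 arrays, for the 4 groups, with the group mean and SD (n = 4). Kcnd2 is the only 1 of the 10 in which all 8 Clock hearts lie above all 8 WT hearts, while Kcnv2 is lowest on average in WT chow (-0.37) and highest in Clock HFD (0.39).

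Kcnd2 transcripts were higher in Clock than in WT hearts on both diets. Kcnd2 (chromosome 6, 21215346 to 21729805) encodes a pore subunit of the fast transient outward current. Its log2 values were -0.58, -0.11, -0.12 and -0.59 in the WT chow hearts and 0.40, 0.31, 0.16 and 0.11 in the Clock chow hearts. On HFD they were -0.28, -0.23, -0.17 and -0.35 in WT and 0.50, 0.37, 0.34 and 0.30 in Clock hearts. All 8 WT hearts were below all 8 Clock hearts, and a lack of overlap in either direction held for 0.730% of all genes. The Clock minus WT difference was 0.60 ± 0.10 on chow (1.51-fold, adjusted p = 0.0146) and 0.64 ± 0.10 on HFD (1.55-fold, adjusted p = 0.00333). WT chow replicates 1 and 4 were the lowest hearts and made the WT chow group the most variable (SD 0.27, against 0.07 to 0.13 in the other groups). The call on chow was lost without Clock chow replicate 1 (difference 0.55, adjusted p = 0.0612) and in a fit of only the 8 chow arrays (adjusted p = 0.136), and the call on HFD was kept in all 24 other settings.

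In bulk tissue, fewer cells of a type and less RNA per cell cannot be told apart. The mean log2 value of the 8 heart muscle cell markers ranged from -0.09 to 0.03 in WT chow and -0.06 to 0.04 in Clock chow hearts, and from -0.06 to -0.01 in WT HFD and 0.0016 to 0.07 in Clock HFD hearts. These marker means thus overlapped between the genotypes on chow and did not on HFD, where they were higher in Clock hearts. On HFD 7 of the 8 markers had a positive difference and 1 a negative one, with a median of 0.07. Of the 8 markers 0 passed there, where 1.90% of all genes passed. Their part in the Kcnd2 difference was not tested.

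Kcnd3 and Kcnip2, the other genes of the same current, did not pass in any comparison. Kcnd3 (chromosome 3, 105451890 to 105674002) encodes the second pore subunit and was the least variable of the 10, with all values between -0.16 and 0.15. Its Clock minus WT difference was 0.15 on chow (95% interval 0.04 to 0.26, adjusted p = 0.287) and 0.09 on HFD (-0.02 to 0.20, adjusted p = 0.467).

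Kcnip2 (chromosome 19, 45792346 to 45816422) encodes the calcium-binding partner that brings these pores to the membrane. Its values were 0.55, 0.25, 0.76 and 0.06 in WT chow hearts and -0.09, -0.05, 0.39 and -0.19 in Clock chow hearts. On HFD they were -0.11, 0.43, -0.08 and 0.48 in WT and -0.17, 0.05, -0.16 and -0.15 in Clock hearts. The groups overlapped on both diets, and WT HFD hearts fell into a low and a high pair. Clock minus WT was -0.39 on chow (95% interval -0.73 to -0.04, adjusted p = 0.429) and -0.29 on HFD (-0.63 to 0.06, adjusted p = 0.487). Without WT chow replicates 2 and 4 the difference on chow was -0.64 (adjusted p = 0.233). Kcnip2 had the largest spread within groups of the 10, a residual SD of 0.26, above that of 99.1% of all genes. Averaged over the diets it did not pass (-0.34 ± 0.12, adjusted p = 0.129) until WT chow replicates 2 and 4 were both left out (-0.46, adjusted p = 0.0495). The KLF15 gene Klf15 differed by 0.02 on chow and -0.05 on HFD between the genotypes, and passed in no comparison. Between the diets Klf15 averaged -0.10 in WT chow and 0.11 in WT HFD hearts, which did not overlap (5.30% of all genes). In Clock hearts it averaged -0.07 on chow and 0.06 on HFD, which overlapped. The diet differences of Kcnip2 had the opposite sign (-0.23 in WT and -0.12 in Clock hearts). The part of Klf15 in the Kcnip2 values was not tested.

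The pore gene Kcnd2 was also set against its partner Kcnip2, and then against Kcnd3, within each heart. Both pairs were chosen after their values were seen, so no test is given. The log2 difference Kcnd2 minus Kcnip2 averaged -0.75 ± 0.33 (SD, n = 4) in WT chow and 0.23 ± 0.32 in Clock chow hearts, and -0.43 ± 0.36 in WT HFD and 0.49 ± 0.15 in Clock HFD hearts. The WT and Clock spans did not overlap on either diet, with the highest WT chow heart at -0.36 and the lowest Clock chow heart at -0.23. Kcnd2 alone did not overlap on either diet, so this lack of overlap adds nothing on Kcnip2. For Kcnd2 minus Kcnd3 the Clock minus WT difference was 0.45 on chow and 0.54 on HFD. These are shifts in log2 values relative to each gene's own median, not ratios of molecules.

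Kcna5 transcripts were higher in Clock than in WT hearts on HFD, and did not pass on chow. Kcna5 (chromosome 6, 126532551 to 126535555) encodes the pore of the ultrarapid delayed rectifier. Its values were 0.03, 0.08, 0.21 and -0.10 in WT chow and -0.24, 0.13, -0.03 and -0.03 in Clock chow hearts, which overlapped. On HFD they were -0.05, -0.16, -0.08 and -0.03 in WT and 0.23, 0.40, 0.11 and 0.54 in Clock hearts, with no overlap. Clock minus WT was -0.09 ± 0.09 on chow (95% interval -0.28 to 0.10, adjusted p = 0.830) and 0.40 ± 0.09 on HFD (1.32-fold, adjusted p = 0.0315).

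The test of the difference between those 2 effects, the interaction, gave 0.49 ± 0.13 for Kcna5 with an unadjusted p of 0.00144, the 35th smallest of all genes, and an adjusted p of 0.760. In the interaction 0 of the 22180 genes passed (0%), and 1122 had an unadjusted p under 0.05 (5.06%). The Kcna5 call on HFD was lost without any 1 of the 4 WT HFD hearts (adjusted p 0.0545 to 0.0923) or without Clock HFD replicate 2 or 4 (adjusted p 0.101 for each). It was lost too with eBayes trend and robust (0.0626) and with the replicate number as a block (0.0553), the difference staying between 0.33 and 0.47 without any 1 array.

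Kcnv2 transcripts were lowest in WT chow and highest in Clock HFD hearts, higher with the mutation and with the diet. Kcnv2 (chromosome 19, 27322061 to 27337179) encodes a silent subunit that forms no channel alone and alters the channels it joins. Its values were -0.33, -0.54, -0.18 and -0.41 in WT chow and 0.15, 0.02, -0.07 and -0.03 in Clock chow hearts, with no overlap. On HFD they were -0.15, -0.02, 0.30 and 0.31 in WT and 0.35, 0.19, 0.59 and 0.41 in Clock hearts, which overlapped. The WT HFD and Clock chow hearts shared the middle of the range.

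No single comparison of Kcnv2 passed. Clock minus WT was 0.38 ± 0.11 on chow (adjusted p = 0.162) and 0.28 ± 0.11 on HFD (adjusted p = 0.247). HFD minus chow was 0.48 ± 0.11 in WT (adjusted p = 0.0720) and 0.37 ± 0.11 in Clock hearts (adjusted p = 0.283), with no overlap between the diets in either genotype. Averaged over the other factor, both passed: 0.33 ± 0.08 for the genotype (1.26-fold, adjusted p = 0.0208) and 0.42 ± 0.08 for the diet (1.34-fold, adjusted p = 0.0115). Without WT chow replicates 2 and 4 both calls were lost (genotype 0.28, adjusted p = 0.120, and diet 0.37, adjusted p = 0.0658). Without WT HFD replicate 1, the lowest of its group, the diet difference in WT hearts passed (0.56, adjusted p = 0.0465).

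Kcnh2 and Kcnq1 carry the rapid and slow delayed rectifiers, which are small in the adult mouse ventricle. Neither passed in any comparison. Kcnh2 (chromosome 5, 24319589 to 24351684) had values of 0.35, -0.07, 0.22 and -0.19 in WT chow and -0.17, -0.04, 0.03 and -0.01 in Clock chow hearts, which overlapped. On HFD they were 0.12, 0.13, 0.25 and 0.22 in WT and -0.09, -0.08, 0.01 and -0.07 in Clock hearts, which did not overlap. Clock minus WT was -0.13 ± 0.09 on chow (adjusted p = 0.734) and -0.24 ± 0.09 on HFD (adjusted p = 0.230).

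The 2 low WT chow hearts for Kcnh2 were replicates 2 and 4, which stand apart in Igtp and in Dbp. Leaving out the 2 lowest WT chow values makes the difference more negative in any case. The difference on chow was -0.33 without both (adjusted p = 0.0579), and -0.22 to -0.03 without any 1 array. Without both the average genotype difference of Kcnh2 went from -0.18 ± 0.06 (adjusted p = 0.137) to -0.29 (adjusted p = 0.0020), and without replicate 4 alone to -0.23 (adjusted p = 0.0302). The HFD difference passed in a fit of only the 8 HFD arrays (adjusted p = 0.0370) and without WT chow replicates 2 and 4 (0.0297). Kcnh2 lies on the same chromosome as Clock, 51.9 Mb away, and whether DNA linked to the allele reaches it was not tested. Kcnq1 (chromosome 7, 143106877 to 143427050) overlapped between the genotypes on both diets, with differences of -0.05 on chow (95% interval -0.25 to 0.15) and -0.14 on HFD (-0.34 to 0.06). Without WT chow replicates 2 and 4 that on chow was -0.24 (adjusted p = 0.443).

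Kcnj2 (chromosome 11, 111066164 to 111076825), the main inward rectifier pore, passed in no comparison although its promoter window holds the E-box shown above. It ranged from -0.26 to 0.04 in WT chow and from -0.62 to 0.09 in Clock chow hearts, with Clock chow replicate 4 the lowest of all 16. On HFD it reached 0.11 in WT hearts and ranged from -0.25 to 0.12 in Clock hearts. Clock minus WT was -0.21 on chow (95% interval -0.46 to 0.05, adjusted p = 0.638) and -0.15 on HFD (-0.41 to 0.10, adjusted p = 0.647).

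Abcc9 transcripts were lower in Clock hearts on both diets. Abcc9 (chromosome 6, 142587862 to 142702766) encodes the regulatory sulfonylurea receptor of the cardiac and vascular ATP-sensitive channels. Its values were 0.29, 0.27, 0.33 and 0.16 in WT chow and -0.19, -0.05, -0.01 and 0.01 in Clock chow hearts. On HFD they were -0.03, 0.22, 0.29 and 0.16 in WT and -0.22, -0.24, -0.16 and -0.16 in Clock hearts. The genotypes did not overlap on either diet, although WT HFD replicate 1 lay among the Clock chow hearts.

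Clock minus WT for Abcc9 was -0.32 ± 0.06 on chow (1.25-fold lower, adjusted p = 0.0314) and -0.36 ± 0.06 on HFD (1.28-fold lower, adjusted p = 0.00738). Averaged over the diets it was -0.34 ± 0.05 (adjusted p = 0.000377). The chow call was lost without any 1 of WT chow replicates 1, 2 and 3 or Clock chow replicates 1, 2 and 3 (adjusted p 0.0650 to 0.118), without WT chow replicates 2 and 4 together (0.0825), in a fit of only the 8 arrays (0.0972) and with eBayes trend and robust (0.0705), while the difference stayed between -0.36 and -0.28 without any 1 array. The HFD and average calls were kept in all the settings tried.

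The pore that pairs with Abcc9 in heart muscle, Kcnj11 (chromosome 7, 46097123 to 46100952), passed in no comparison. It ranged from -0.33 to 0.03 in WT chow and from -0.10 to 0.09 in Clock chow hearts, a difference of 0.19 (95% interval 0.01 to 0.37, adjusted p = 0.487) that was 0.07 without WT chow replicates 2 and 4 (adjusted p = 0.940). On HFD the difference was 0.08 (-0.10 to 0.26, adjusted p = 0.749). Within each heart, Abcc9 minus Kcnj11 averaged 0.45 ± 0.11 (SD, n = 4) in WT chow, 0.17 ± 0.11 in WT HFD, -0.06 ± 0.13 in Clock chow and -0.27 ± 0.07 in Clock HFD hearts. The 4 group means thus lay in that order, with the Clock spans below the WT spans on each diet. This pair too was chosen after its values were seen, so no test is given. Abcc9 alone did not overlap between the genotypes on either diet, so the spans of the pair are not a separate result.

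Abcc9 is also used by vascular mural cells, where its pore is Kcnj8, which is among the 6 pericyte markers. Kcnj8 differed by 0.20 ± 0.10 on chow (adjusted p = 0.580) and 0.20 ± 0.10 on HFD (adjusted p = 0.410), both with the opposite sign to Abcc9. The mean of the 6 pericyte markers ranged from -0.21 to -0.05 in WT chow and from 0.04 to 0.11 in Clock chow hearts, and from -0.09 to -0.0084 in WT HFD and -0.08 to 0.14 in Clock HFD hearts. The 6 smooth muscle markers overlapped between the genotypes on both diets, from -0.0032 to 0.23 in WT chow and -0.15 to 0.13 in Clock chow hearts. Of the pericyte and smooth muscle markers 0 passed in any comparison.

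**Figure D2:**
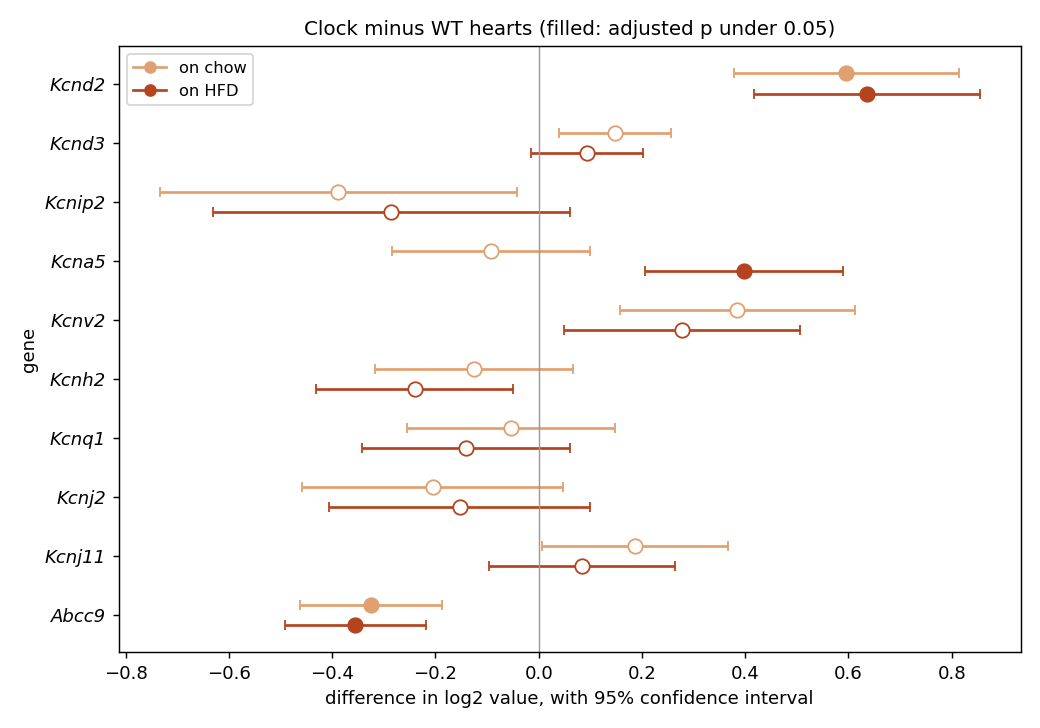
Clock minus WT difference in log2 value for each channel gene on chow and on HFD, with its 95% confidence interval; filled points have an adjusted p under 0.05. Kcnd2 lies at 0.60 and 0.64, Abcc9 at -0.32 and -0.36, and Kcna5 at -0.09 on chow and 0.40 on HFD.

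Counted over the 10 genes, 2 passed between the genotypes on chow (Kcnd2 higher, Abcc9 lower), where 0.491% of all genes passed. Kcnd2, Kcnv2 and Abcc9 did not overlap on chow, against 4.95% of all genes. On HFD 3 passed (Kcnd2 and Kcna5 higher, Abcc9 lower), where 1.90% of all genes passed, and these and Kcnh2 did not overlap, against 8.89%. Averaged over the diets 3 passed (Kcnd2 and Kcnv2 higher, Abcc9 lower), where 3.88% of all genes passed. The median difference of the 10 was -0.07 on chow and -0.03 on HFD, beside medians of -0.00027 and 0.00026 over all genes, since the genes moved in both directions. Some of these members were in view from earlier results when the set was put together, so the counts describe the set.

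Between the diets, Kcnv2 was the only 1 of the 10 that passed, and it did so only on average over the genotypes. In WT hearts 0 of the 10 passed (0.352% of all genes) and Kcnv2 alone did not overlap (5.30% of all genes). In Clock hearts 0 passed (0.0902% of all genes), and again Kcnv2 alone did not overlap (5.31%). Averaged over the genotypes 1 passed (1.54% of all genes). At an unadjusted p under 0.05, Kcnv2 was the only 1 in WT hearts (10.7% of all genes), and Kcna5, Kcnv2 and Abcc9 were the 3 in Clock hearts (8.42%).

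For the members that passed between genotypes, the diet difference had intervals that bound it. HFD minus chow for Kcnd2 was 0.09 in WT (95% interval -0.12 to 0.31) and 0.13 in Clock hearts (-0.08 to 0.35). For Abcc9 it was -0.11 in WT (-0.24 to 0.03) and -0.14 in Clock hearts (-0.27 to -0.0014). Kcna5 had -0.13 in WT (-0.32 to 0.06) and 0.36 ± 0.09 in Clock hearts (0.17 to 0.55, adjusted p = 0.164), where Clock HFD replicate 3 (0.11) lay below Clock chow replicate 2 (0.13). The remaining members, Kcnd3, Kcnip2, Kcnh2, Kcnq1, Kcnj2 and Kcnj11, had diet differences between -0.23 and 0.18. Without WT chow replicates 2 and 4 that of Kcnip2 in WT hearts was -0.48 (adjusted p = 0.381) and that of Kcnq1 -0.25 (adjusted p = 0.354).

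**Figure D3:**
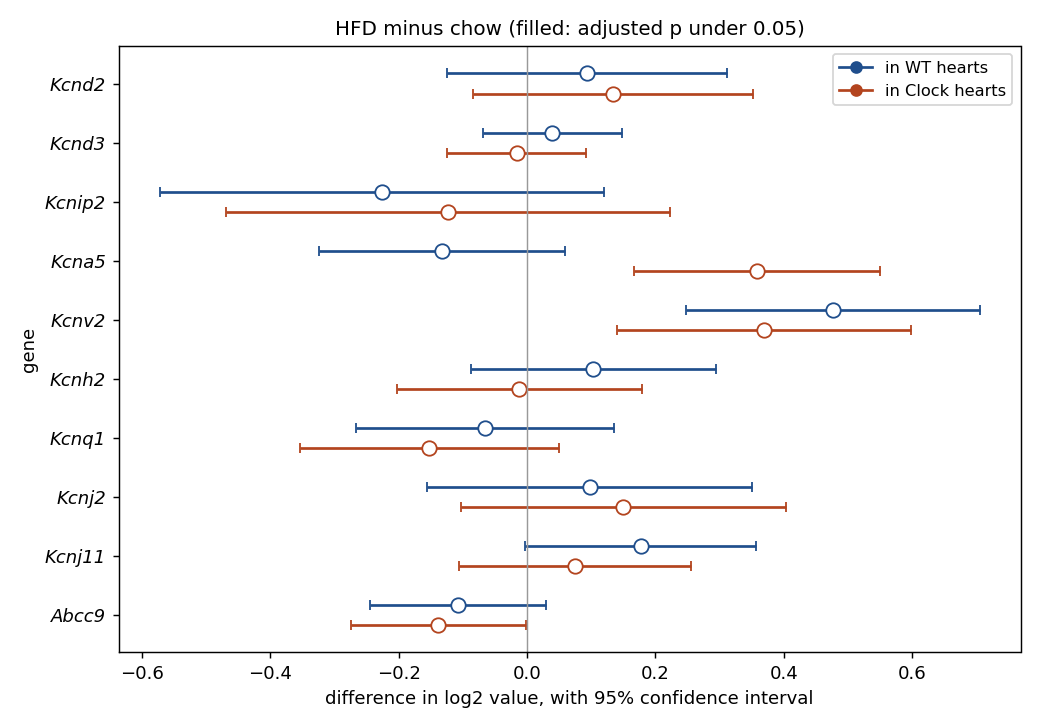
HFD minus chow difference in log2 value for each channel gene in WT and in Clock hearts, with its 95% confidence interval; no point is filled, since none had an adjusted p under 0.05. Kcnv2 lies at 0.48 and 0.37, and Kcna5 at -0.13 in WT and 0.36 in Clock hearts.

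How the members varied together among hearts of the same group was a different pattern from how the groups differed. Over the 16 hearts Kcnd2 and Abcc9 had a Pearson r of -0.81, and 0.08 once each group's mean was taken out. Kcnv2 and Kcnj11 kept theirs, at 0.86 over all 16 hearts and 0.84 within groups. Of the 45 pairs, 10 had an r over 0.5 within groups and 0 were under -0.5. The share over all pairs of genes was not computed, so these counts describe the set only. In a check chosen after seeing the data, without WT chow replicates 2 and 4, 3 of those 10 pairs stayed over 0.5, Kcnv2 with Kcnj11 (0.84), Kcnh2 with Abcc9 (0.61) and Kcnq1 with Abcc9 (0.60). The r of Kcnh2 with Kcnq1 went from 0.58 to -0.02 without those hearts. In that check 1 pair was under -0.5, Kcnd2 with Kcnh2, which went from -0.12 to -0.63. These are descriptions over 16 arrays that share 1 normalization, with 12 degrees of freedom within groups.

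**Figure D4:**
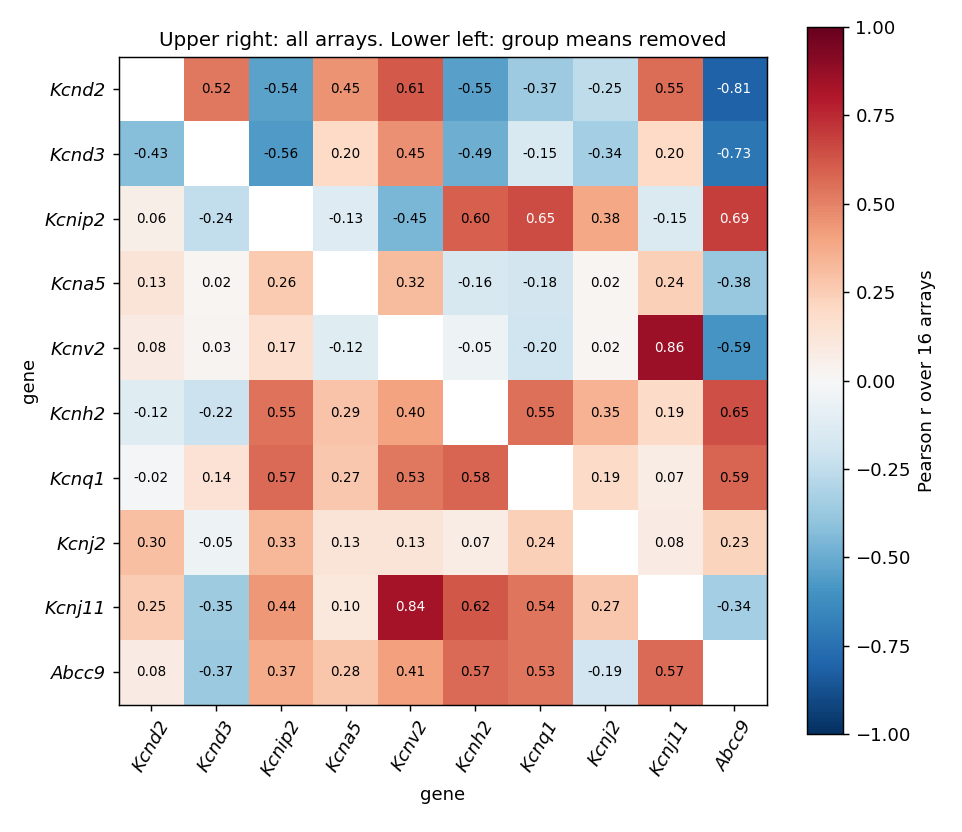
Pearson r between each pair of the 10 channel genes over the 16 arrays, over all arrays in the upper right and with each group's mean taken out in the lower left. Kcnv2 and Kcnj11 lie at 0.86 and 0.84, while Kcnd2 and Abcc9 lie at -0.81 over all arrays and 0.08 within groups.

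The genes whose values were most like each member were read over all 22180 genes, for the members that passed in the average genotype comparison. Kcnd2 was most like Lrtm1 (r = 0.94), Slc17a7 (0.94), a vesicular glutamate transporter gene, and Wfs1 (0.93), an endoplasmic reticulum protein gene. Kcnv2 was most like Ryr2 (0.90), the calcium release channel of heart muscle, Suclg2 (0.89), a citric acid cycle enzyme gene, and Cpe (0.89), a carboxypeptidase gene. Abcc9 was most like Frem2 (0.94), Hsd17b7 (0.93), a cholesterol synthesis enzyme gene, and 9330133O14Rik (0.92). Within groups these values were lower, from 0.46 to 0.72. Ryr2 itself, 1 of the 8 heart muscle markers, was higher with the mutation (0.17 ± 0.03, adjusted p = 0.00698) and with the diet (0.15 ± 0.03, adjusted p = 0.0335) on average, as Kcnv2 was. Ryr2 was named here for its r with Kcnv2 over these same hearts, so a like pattern follows from that choice. Whether Ryr2 has a part in the Kcnv2 result was not tested.

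The rest of the potassium channel family mostly did not pass. Of 26 other voltage-gated pore genes 0 passed in any of the 7 comparisons. The smallest unadjusted p values among them were those of Kcnv1 (-0.18 ± 0.05 on average between genotypes, adjusted p = 0.0588), Kcna4 (-0.14 ± 0.04, adjusted p = 0.0709), the slowly recovering transient outward pore, and Kcnq5 (-0.11 ± 0.04, adjusted p = 0.157). Of 10 two-pore genes, which carry background currents, 0 passed, with Kcnk7 (-0.15, adjusted p = 0.113) and Kcnk1 (-0.14, adjusted p = 0.125) the nearest between genotypes and Kcnk6 (-0.14, adjusted p = 0.314) between diets.

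Of 13 accessory subunit genes 1 passed between genotypes, on HFD (1.90% of all genes) and on average (3.88%). Kcnip1, a relative of Kcnip2 best known from neurons, was lower in Clock hearts on HFD, at 0.19, 0.19, 0.37 and 0.48 in WT and -0.02, -0.09, -0.06 and -0.10 in Clock hearts (-0.38 ± 0.07, adjusted p = 0.00965). On chow its groups overlapped (-0.14, adjusted p = 0.582). Of 13 inward rectifier genes Kcnj14 passed on average between genotypes (0.21 ± 0.05, adjusted p = 0.0390), and of 11 calcium- and sodium-activated genes Kcnmb1, a smooth muscle subunit, did (0.22 ± 0.06, adjusted p = 0.0450). In that comparison 3.88% of all genes passed.

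Of 15 regulators of these channels, Irx3, Hey2 and Akap9 passed in at least 1 of the 7 comparisons. Between genotypes 1 passed on chow (0.491% of all genes), 1 on HFD (1.90%) and 2 on average (3.88%). Between diets 1 passed in WT hearts (0.352% of all genes) and 1 on average (1.54%). Irx3, a homeobox factor of the conduction system, was lower in Clock hearts on chow (-0.36 ± 0.06, adjusted p = 0.0111) and on HFD (-0.30 ± 0.06, adjusted p = 0.0147). Its lowest WT heart was at 0.01 and its highest Clock heart at -0.02, so that no hearts of the genotypes overlapped. Such a lack of overlap, in either direction, held for 0.730% of all genes. Hey2, a Notch-driven repressor of ventricular muscle, was lower on average (-0.31 ± 0.07, adjusted p = 0.0256). Akap9, the anchoring protein of the slow delayed rectifier, was higher on HFD in WT hearts (0.31 ± 0.06, adjusted p = 0.0301) and on average (0.19 ± 0.04, adjusted p = 0.0250).

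**Figure D5:**
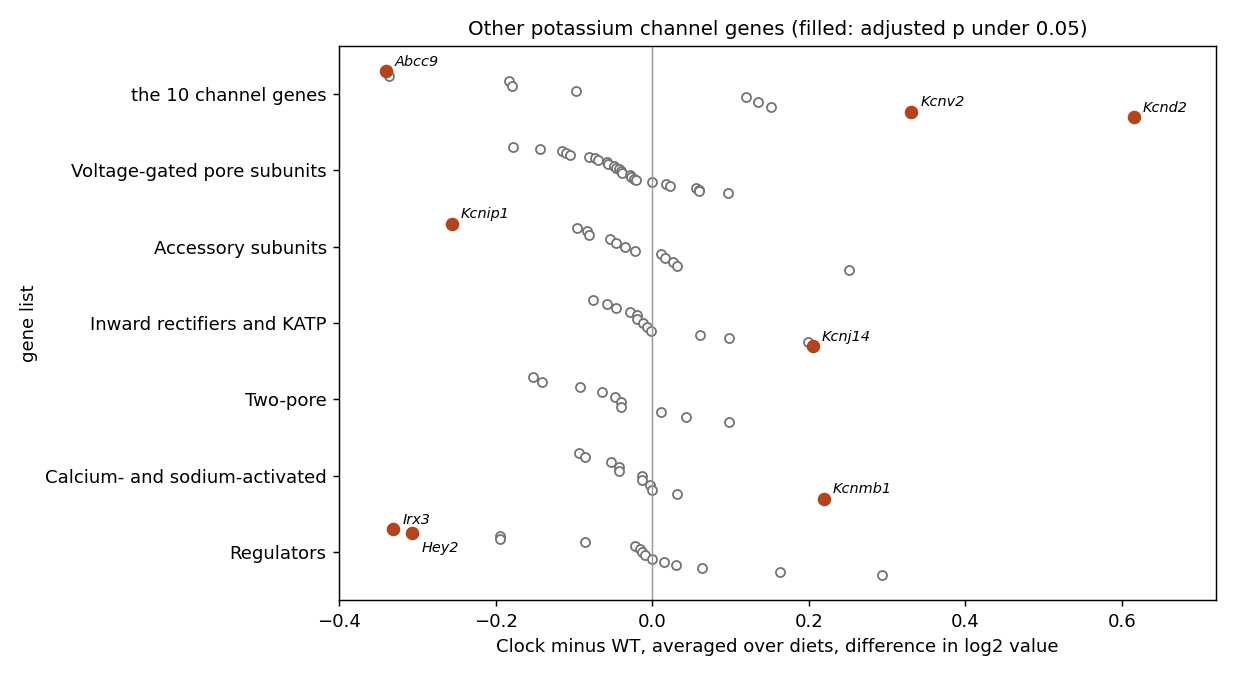
Clock minus WT difference in log2 value, averaged over the diets, for the 10 channel genes and for the members of 6 other lists, 1 point per gene; filled points have an adjusted p under 0.05. The filled points are Abcc9, Kcnv2 and Kcnd2 of the 10, and Kcnip1, Kcnj14, Kcnmb1, Irx3 and Hey2 of the others.

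Markers of other cell types also moved with the genotype and the diet. On average 3 of 6 fibroblast markers (Col1a1, Lum and Gsn) and 3 of 6 endothelial markers (Pecam1, Tek and Esam) passed and were higher in Clock hearts, by 0.16 to 0.30. Of all genes 3.88% passed in that comparison. Between the diets, in the average comparison in which Kcnv2 and 1.54% of all genes passed, 2 of the 6 endothelial markers were lower on HFD, Emcn (-0.21 ± 0.05, adjusted p = 0.0298) and Kdr (-0.24 ± 0.05, adjusted p = 0.0254). All 6 had a negative difference there, with a median of -0.08. The fibroblast mean ranged from -0.27 to -0.07 in WT chow and -0.0025 to 0.13 in Clock chow hearts, and from -0.15 to 0.07 in WT HFD and -0.07 to 0.22 in Clock HFD hearts. The endothelial mean ranged from -0.07 to 0.04 in WT chow, -0.20 to -0.12 in WT HFD, 0.06 to 0.15 in Clock chow and -0.08 to 0.16 in Clock HFD hearts. Atrial, conduction system, macrophage, adipocyte, nerve and skeletal muscle markers, and the 1 blood marker measured, had 0 that passed. Some of their means still differed. The skeletal muscle mean ranged from -0.05 to 0.12 in WT chow, -0.26 to -0.08 in Clock chow and -0.01 to 0.05 in Clock HFD hearts. Of its 6 markers 3 had a positive and 3 a negative genotype difference on chow. The atrial mean ranged from 0.09 to 0.19 in WT chow and -0.16 to 0.08 in WT HFD hearts. The 5 conduction and nodal markers overlapped between the genotypes on both diets. The part of these cell types in the channel results was not tested.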

How the data were processed

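Biotin-labelled RNA from 500 ng of total RNA of each of 16 hearts was read on 1 Affymetrix array each, per the labels' protocols. The authors deposited log2 values for 34351 probe sets, each probe set centred at its own median. The sources used here give neither the base nor the sign of the logarithm; base 2 was assumed, with positive values read as higher expression. The upstream software is not given in those sources. Centred values hold no signal level, so no filter on dim genes was made, and the number of arrays limits the precision.

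Probe sets with 1 symbol (23521) were averaged per gene, giving 22180 genes, and those with several (1814) or none (9016) were left out. A check of the symbols by gene ID with RefSeq (GRCm38.p6) changed 0 of them. The comparisons used limma 3.58.1 (R 4.3.3; lmFit with 1 mean per group, eBayes) on all 16 arrays, with 12 residual and 4.16 prior degrees of freedom, and Benjamini-Hochberg adjustment over all genes. The fit was tested on simulated data. The replicates are labelled as biological; p-values measure the spread between these samples. Over 24 pairs of same-numbered hearts, the deviations from the group means had correlations of -0.149 to 0.163, with 3 over 0.1, so the numbers were not taken as pairs.

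The members and the lists of other channel genes and markers were chosen with earlier results of these data known. Named are all 10 members, the listed channel genes and regulators that passed in at least 1 comparison (otherwise up to 3 with the smallest p in a list), the 3 genes most like each member that passed on average between the genotypes, and Dbp, Nr1d1, Arntl and Klf15. Other genes were named after their values were seen. Alternatives were eBayes with trend and robust, array weights, quantile normalization, other uses of the probe sets, the replicate number as a block, fits of only the 8 arrays compared, and leaving arrays out 1 at a time. WT chow replicates 2 and 4 were also left out together. Promoter windows were searched with Python 3.11.15, and figures were drawn with matplotlib 3.10.9.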

Additional observations from a re-analysis of the deposited data

Results flagged for a closer look

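Among the 40 groups of 4 hearts (10 genes in 4 groups), 2 held a heart far from the other 3 of its group, and chance alone marks about 1 in 20 groups. Kcnip2 was at 0.051 in Clock HFD replicate 2, with the other 3 hearts between -0.17 and -0.15. Kcnj2 was at -0.26 in WT chow replicate 4, with the other 3 hearts between 6.8e-05 and 0.04. In each, the gap to the nearest heart took 0.923 and 0.877 of the group's whole range, above Dixon's critical value for 4 samples. WT chow replicate 4 is also the heart that stands apart from its group in Dbp.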

How the results depend on the processing

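Each of the 70 member differences (10 genes in 7 comparisons) was recomputed under 24 other settings where they applied, giving 1650 values, of which 1596 kept their direction and side of the threshold, 21 lost a call, 6 gained one and 27 changed sign; 0 of the 9 differences that passed changed sign. On chow the count of members that passed between genotypes was 1 with eBayes trend and robust, 0 with only the 8 arrays compared and 1 without WT chow replicates 2 and 4, and 0 to 2 without any 1 array. The other counts without any 1 array were 2 to 3 on HFD, 3 to 4 on average between genotypes, 0 to 1 for the diet in WT hearts, 0 to 0 in Clock hearts and 1 to 1 on average between diets; the last was 0 without WT chow replicates 2 and 4.

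Without WT chow replicates 2 and 4, differences that had not passed changed sign for Kcnh2 between diets (-0.11 in WT hearts, -0.059 on average) and in the interaction (Kcnv2 0.0027, Kcnh2 0.094, Kcnq1 0.097, Kcnj11 0.017, Abcc9 0.019). Leaving out 1 array changed the sign of 10 differences that had not passed, over ranges of -0.040 to 0.12 (Kcnd2), -0.016 to 0.23 (Kcnip2), -0.071 to 0.17 (Kcnj2) and -0.094 to 0.014 (Abcc9) in the interaction, -0.041 to 0.010 (Kcnd3), -0.19 to 0.0020 (Kcnip2) and -0.052 to 0.016 (Kcnh2) for the diet in Clock hearts, -0.15 to 0.011 (Kcnq1) for the diet in WT hearts, -0.0018 to 0.027 (Kcnd3) for the diet on average, and -0.14 to 0.016 (Kcnq1) between genotypes on chow. The causes were not tested. With the replicate number as a block, the Kcna5 call on HFD was lost (difference 0.40, adjusted p = 0.0553) and no other call of a member changed.

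Over all genes, the count that passed on chow was 109, against 38 with only the 8 arrays, 59 with trend and robust, 49 without WT chow replicates 2 and 4, and 49 to 144 without any 1 array. On HFD it was 422, against 241 to 490 without any 1 array. For the diet in WT hearts it was 78, against 15 with only the 8 arrays, 40 with trend and robust, 11 without WT chow replicates 2 and 4, 41 with the block and 28 to 90 without any 1 array; in Clock hearts it was 20, against 7 with only the 8 arrays, 8 with trend and robust, 12 with the block, 36 after quantile normalization, 37 with probe sets of several symbols averaged in, 53 with array weights and 6 to 27 without any 1 array. On average it was 861, against 507 without WT chow replicates 2 and 4, between genotypes and 341, against 141 without the same hearts and 218 to 329 without any 1 array, between diets. No dim-gene filter could be run on centred values, and the probe set with the highest mean was replaced by that with the largest SD for the same reason.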
